A study of Mus musculus with 4 samples.

Results

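The germline and meiosis genes described here were 38 mouse genes whose products act in germ cell RNA control and specification, the piRNA pathway, the meiotic chromosome axis and synapsis, meiotic recombination, or other steps of spermatogenesis. They were chosen by gene name and were represented by 46 of the 55681 gene probes on the array. RNA of the embryonic stem cell line E14Tg2A, 1 established line of strain 129/Ola, was measured on 4 one-colour Agilent arrays, 1 for each group. The ES group held untreated cells kept in serum and LIF (0 days in vitro). The ELA group held untreated epiblast-like aggregates, that is, the same cells floated for 2 days in chemically defined minimal medium without LIF, which brings them towards the primed state of the epiblast. The ELA+AZA group received 50 nM 5-azacytidine during those 2 days, a nucleoside analogue that blocks DNA methyltransferases. The ELA+CHQ group received 100 µM 5-carboxy-8-hydroxyquinoline, which inhibits histone lysine demethylases. Each array held RNA pooled from 3 experiments, so a group had 1 value, no test between groups was possible and no p-value is given. The questions were which of these genes differed between ES cells and ELA, and which differed when ELA formed under either inhibitor.

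Germline genes are kept silent in most cells of the body, many of them by DNA methylation of CpG-rich promoters and by repressor complexes that bind E2F and E-box elements there. Naive pluripotent cells have little DNA methylation and express part of this programme, which is silenced as the epiblast becomes primed and gains methylation. Later the same genes serve germ cells: piRNAs bound by PIWI proteins silence transposons, and cohesin, axis and synaptonemal complex proteins hold homologous chromosomes together while meiotic breaks are repaired.

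Intensities are given as normalised log2 values, so a difference of 1 is a 2-fold difference. Of the 38 genes, 36 had a usable spot on every array. Each of these 36 exceeded background clearly on 1 array or more, and 27 did so on all 4. The number well above background was 30 on the ES array, 27 on ELA, 33 on ELA+AZA and 35 on ELA+CHQ, against 65.4%, 60.4%, 73.1% and 73.5% of all 36039 genes. A call of higher or lower needed a difference of at least 1 between 2 arrays, a mean of 7.5 or more, and a signal that 1 array or both flagged as well above background. The ES and ELA arrays lay on 1 slide and the ELA+AZA and ELA+CHQ arrays on another, with median local background of 59 and 77 intensity units on the former and 14 and 13 on the latter. Treatment and slide therefore cannot be told apart in either comparison of treated with untreated cells, whereas ELA against ES and ELA+CHQ against ELA+AZA were each measured within a slide. Repeated spots of a probe had an SD of 0.124 to 0.174 within an array, which is technical error only. In pooled cultures, more cells expressing a gene and more RNA per cell cannot be told apart. Every one of the 6 pluripotency markers examined was well above background on all 4 arrays. Of the 3 measured markers of testis somatic cells, Amh was so on none and Star and Cyp17a1 on all 4, with Cyp17a1 at 11.64 to 12.69.

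**Figure D1:**
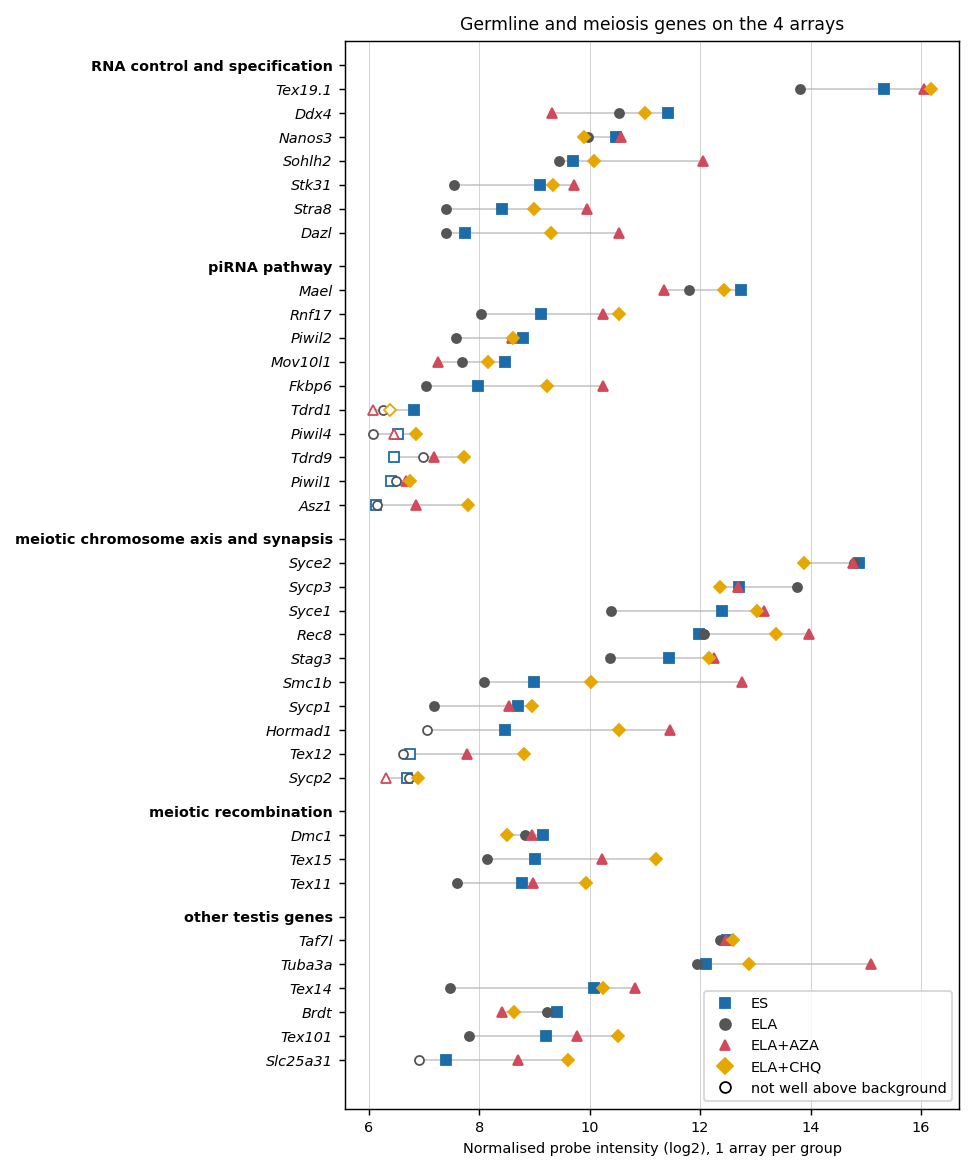
Normalised probe intensity (log2, horizontal axis) of the 36 germline and meiosis genes with a usable spot on every array, grouped by role and ordered within a role by the ES value. Each symbol is 1 array and open symbols were not well above background. The ELA symbol lies to the left of both treated symbols for most genes, from Dazl at 7.40 on ELA to Tex14 at 7.47, while Sycp3 has its highest value, 13.76, on ELA.

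The promoters of the members were examined because DNA methylation acts at CpG-rich sequence and because many of them were called higher together. RefSeq windows of 300 bases (GRCm38.p6, 250 before to 50 after the start) were found for 33 of the 38 genes, in 40 windows since several genes have more than 1 start. Spo11, Tex15, Rnf17, Tex11 and Piwil2 were not matched. The motifs searched were GCGGGA, on both strands, so that its reverse complement appears as TCCCGC, and CACGTG, which is its own reverse complement. The motifs can share bases where CACGTG runs into GCGGGA. Motif letters are in capitals, and each sequence runs 5′ to 3′ on the strand of the gene given in brackets. The windows of 5 genes called higher with at least 1 inhibitor are shown, followed by those of Mael and Taf7l, which were called with neither.
Hormad1, chr3:95559427-95559726 (+): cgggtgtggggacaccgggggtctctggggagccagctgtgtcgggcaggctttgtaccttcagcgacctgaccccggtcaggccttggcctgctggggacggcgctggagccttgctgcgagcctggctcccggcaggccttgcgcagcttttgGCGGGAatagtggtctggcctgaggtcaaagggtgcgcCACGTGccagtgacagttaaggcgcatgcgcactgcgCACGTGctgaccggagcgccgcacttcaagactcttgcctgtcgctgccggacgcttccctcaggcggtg
Smc1b, chr15:85131908-85132207 (-): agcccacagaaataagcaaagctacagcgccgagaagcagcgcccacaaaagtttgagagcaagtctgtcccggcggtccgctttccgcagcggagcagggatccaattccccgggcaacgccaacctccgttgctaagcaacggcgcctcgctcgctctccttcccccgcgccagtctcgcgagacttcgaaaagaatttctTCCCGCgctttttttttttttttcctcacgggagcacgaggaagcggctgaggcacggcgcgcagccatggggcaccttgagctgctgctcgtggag
Stag3, chr5:138280259-138280558 (+): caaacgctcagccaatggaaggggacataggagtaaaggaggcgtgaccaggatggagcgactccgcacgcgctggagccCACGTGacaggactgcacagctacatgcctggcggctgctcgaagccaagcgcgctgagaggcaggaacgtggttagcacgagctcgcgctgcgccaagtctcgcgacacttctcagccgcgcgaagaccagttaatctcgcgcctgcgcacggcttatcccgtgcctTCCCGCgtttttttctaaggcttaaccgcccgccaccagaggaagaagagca
Tex12, chr9:50561219-50561518 (-): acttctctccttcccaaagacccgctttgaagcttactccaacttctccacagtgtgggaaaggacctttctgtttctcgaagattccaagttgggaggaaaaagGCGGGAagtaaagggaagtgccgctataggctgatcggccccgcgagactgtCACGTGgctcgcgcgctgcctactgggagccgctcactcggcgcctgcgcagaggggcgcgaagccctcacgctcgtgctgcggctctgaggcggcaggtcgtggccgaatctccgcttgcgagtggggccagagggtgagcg
Slc25a31, chr3:40708621-40708920 (+): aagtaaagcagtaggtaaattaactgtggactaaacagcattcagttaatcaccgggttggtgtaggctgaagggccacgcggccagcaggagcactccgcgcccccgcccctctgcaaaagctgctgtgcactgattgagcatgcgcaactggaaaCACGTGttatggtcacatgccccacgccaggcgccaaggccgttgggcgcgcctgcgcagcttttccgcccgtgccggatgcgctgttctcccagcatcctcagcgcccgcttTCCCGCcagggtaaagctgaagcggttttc
Mael, chr1:166238695-166238994 (-): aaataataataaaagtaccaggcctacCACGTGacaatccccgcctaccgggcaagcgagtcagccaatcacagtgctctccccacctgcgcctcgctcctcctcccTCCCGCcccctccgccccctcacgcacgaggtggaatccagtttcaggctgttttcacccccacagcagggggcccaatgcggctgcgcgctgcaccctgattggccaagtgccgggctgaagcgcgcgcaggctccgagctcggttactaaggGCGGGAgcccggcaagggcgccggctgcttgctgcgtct
Taf7l, chrX:134476441-134476740 (-): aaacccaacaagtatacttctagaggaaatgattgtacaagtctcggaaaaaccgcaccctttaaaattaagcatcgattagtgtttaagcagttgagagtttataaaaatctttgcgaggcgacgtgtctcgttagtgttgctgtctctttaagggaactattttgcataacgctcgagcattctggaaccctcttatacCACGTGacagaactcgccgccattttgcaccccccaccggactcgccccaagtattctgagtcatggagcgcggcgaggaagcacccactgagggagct

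The 5 windows of called genes were chosen among those holding GCGGGA or its reverse complement. In Hormad1 it lay 95 bases before the start, and CACGTG lay 57 and 20 bases before it. The Smc1b window held no CACGTG, and its TCCCGC began 47 bases before the start. In Stag3 CACGTG began 170 and TCCCGC 2 bases before the start. The Tex12 window held GCGGGA and CACGTG at 145 and 93 bases before the start. CACGTG alone was found in the Taf7l window, 49 bases before the start, and the Mael window held both motifs. A match of letters is a description and not a binding site.

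Over the 40 windows the median was 20 CpG dinucleotides, with a range of 0 to 38, against 7 over all 32851 RefSeq promoter windows and 13 over the protein-coding ones. CACGTG was present in 21 of 40 windows (52.5%), against 7.15% of all promoters. In the 4256 protein-coding windows with 16 to 24 CpG it was present in 10.8%. GCGGGA was present in 17 of 40 (42.5%), against 20.0% of all promoters and 37.7% of the protein-coding windows with 16 to 24 CpG. The CpG counts of called and uncalled genes overlapped. With 1 window a gene, the 14 matched genes called higher with both inhibitors had 10 to 32 CpG (median 21.5), and the 7 called with neither had 3 to 33 (median 20). CACGTG was found in 6 of the former and 5 of the latter. These are counts in small groups, given without a test.

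**Figure D2:**
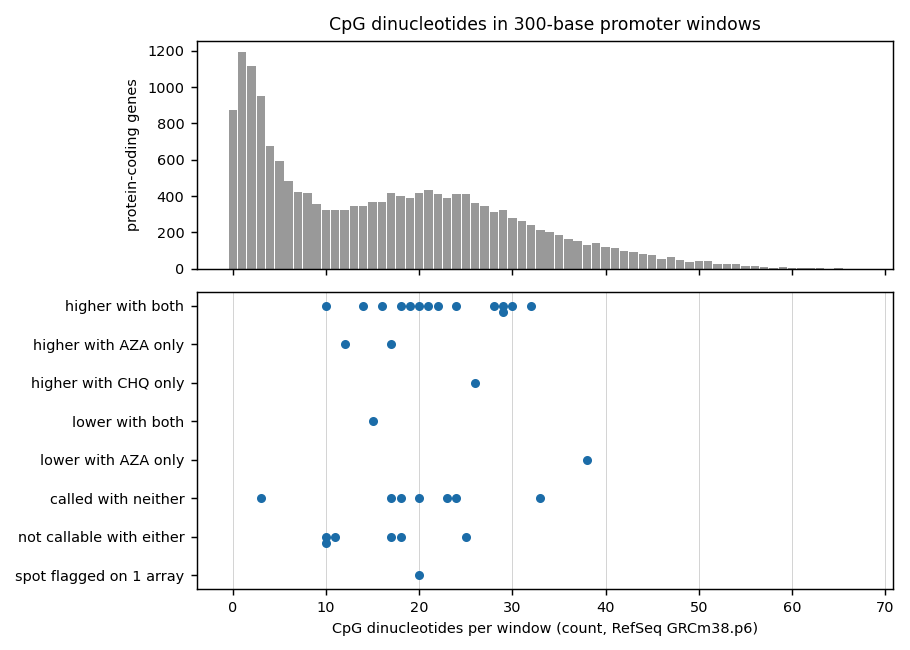
CpG dinucleotides (count, horizontal axis) in 300-base RefSeq promoter windows. The upper panel is a histogram over 17492 protein-coding genes, and in the lower panel each point is 1 of 33 germline and meiosis genes, placed by how it was called with AZA and CHQ. Genes called higher with both span 10 to 32 CpG and those called with neither span 3 to 33.

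Between ES cells and ELA, 12 of the 36 measured genes (28 callable) were called lower and 1 higher. Over all genes that could be called, 5.6% were lower and 4.46% higher in this comparison. The median difference over the 36 genes was -0.66, against -0.02 over all genes, and 30 of the 36 values were below 0. The median of the 36 was -1.03 under 75th percentile scaling and -1.13 under spike-in scaling. The median over all genes was then 0.07 and -0.43, so under spike-in scaling all genes shifted down too. The genes called lower came from every role: Stk31, Stra8, Tex19.1, Piwil2, Rnf17, Sycp1, Hormad1, Syce1, Stag3, Tex11, Tex101 and Tex14. Hormad1 kept this call only under some settings: it was lost under 75th percentile scaling, an offset of 16, the authors' table, the mean over probes and where both arrays had to be well above background. Stra8 lost it under 75th percentile scaling and in the authors' table, and Sycp1 and Tex11 in the authors' table. In each of these cases the difference was still at least 1 in size, and the intensity minimum or the background flag was not met. Tex11 also lost the call with the mean over probes, where its difference was only -0.43. Tex14, needed for the intercellular bridges between germ cells, had the largest difference, with 10.07 on ES and 7.47 on ELA, 6.06-fold lower. Syce1, a central element protein of the synaptonemal complex, was at 12.39 on ES and 10.39 on ELA, a difference of -2.0. The gene called higher was Sycp3, and it is described with its role below.

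In ELA that formed with AZA, 20 of the 36 genes (28 callable) were called higher than in ELA and 2 lower. Among all callable genes 14.3% were higher and 11.4% lower. The median difference of the 36 was 1.36, against -0.04 over all genes. In ELA that formed with CHQ, 19 of the 36 (30 callable) were called higher and 1 lower, where 14.8% and 11.9% of all callable genes were. Here the median was 1.46, or 1.18 with genes not well above background set to their bound, against -0.04 over all genes. Both comparisons use the same ELA array, so its error enters both and their likeness is no independent evidence. That array also enters ELA against ES with the opposite sign. Its error by itself would thus make a gene differ in ELA while treated values lay near ES. By the calls against ELA, 18 genes were higher with both inhibitors, 2 with AZA alone (Sohlh2 and Tuba3a) and 1 with CHQ alone (Tex12). The share of all callable genes in each of these classes is not given. The class sizes therefore cannot be set against all genes. Under at least 1 alternative, a call of higher against ELA was lost for Stra8, Piwil2, Fkbp6, Sycp1, Hormad1, Tex12, Tex11 and Slc25a31. The difference fell below 1 only for Piwil2 under spike-in scaling (0.75 and 0.67) and for Tex11 with the mean over probes (0.61 with AZA). In the other cases it stayed above 1, for example 2.39 for Stra8 with CHQ under 75th percentile scaling, and the intensity minimum or the background flag was not met. Ddx4 was lower with AZA alone and Sycp3 lower with both. A further 7 were called with neither, namely Nanos3, Mael, Mov10l1, Syce2, Dmc1, Taf7l and Brdt. Of these, Mov10l1 was too dim to be called with AZA. Another 6 were too dim to be called in either comparison, and 2 had a spot flagged on 1 array.

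**Figure D3:**
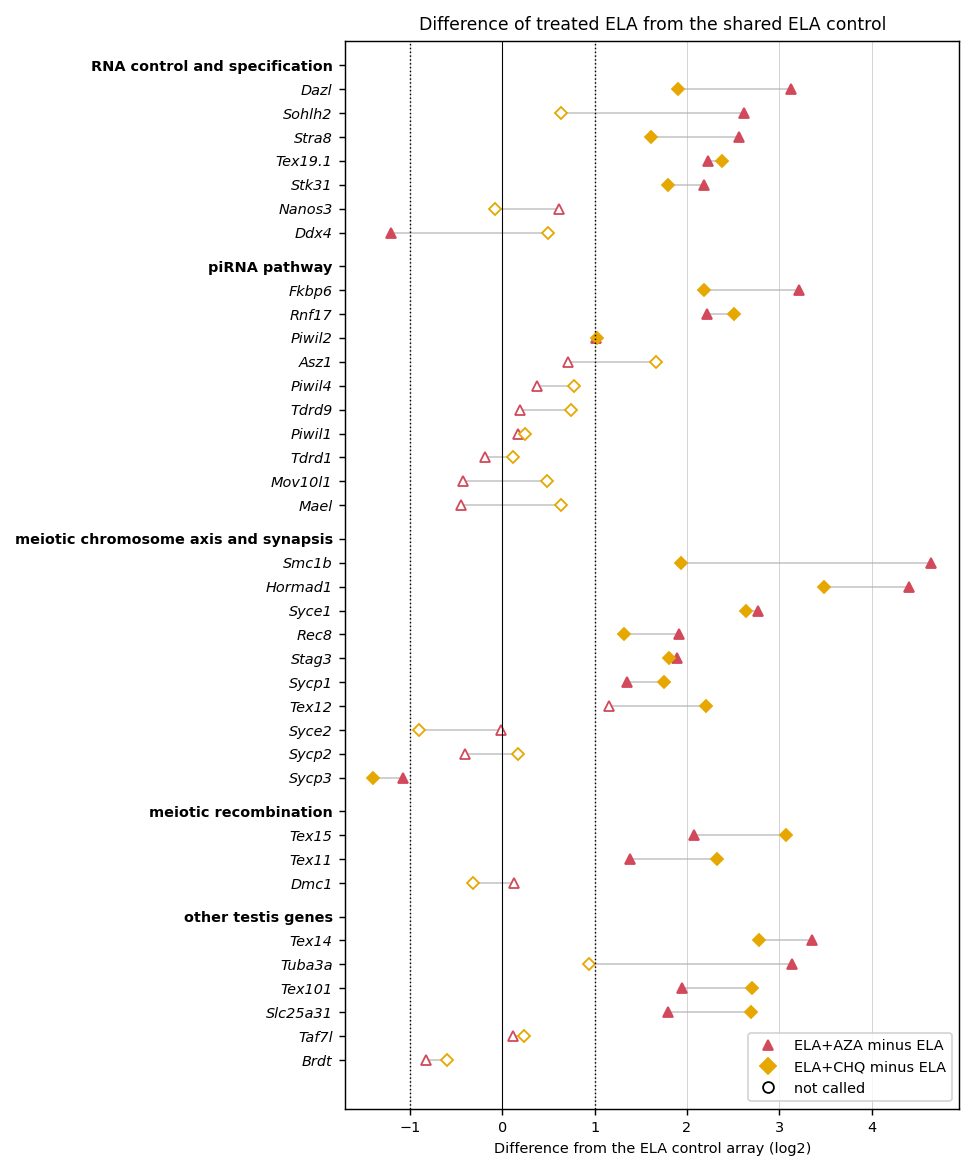
Difference of ELA+AZA (triangles) and ELA+CHQ (diamonds) from the ELA array (log2, horizontal axis) for 36 germline and meiosis genes grouped by role. Filled symbols were called, dotted lines mark a difference of 1, and both differences share the ELA array. Smc1b (4.65 with AZA) and Hormad1 (4.41) lie farthest to the right, and Sycp3 lies below -1 with both inhibitors.

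Among the 8 genes of RNA control and specification (7 callable), 5 were called higher and 1 lower with AZA, and 4 higher with CHQ. Of all callable genes, 14.3% were higher and 11.4% lower with AZA, and 14.8% and 11.9% with CHQ. These shares also stand beside the counts of the other roles below. Dazl encodes an RNA-binding protein that germ cells require for their differentiation. Its values were 7.75 on ES, 7.40 on ELA, 10.53 on ELA+AZA and 9.30 on ELA+CHQ. The treated arrays were thus 8.73-fold and 3.74-fold above ELA, and both were also above ES. Stra8, a retinoic acid target required for entry into meiosis, was at 8.41, 7.39, 9.95 and 9.0 in the same order. It was 5.90-fold above ELA with AZA and 3.05-fold above with CHQ. Stk31, a tudor domain kinase of the testis, was at 9.1, 7.54, 9.71 and 9.33, so that both treated values lay close to the ES value. Tex19.1, which restrains retrotransposons in germ cells and is also expressed in ES cells, was at 15.33, 13.81, 16.05 and 16.19. Its rise was nearly equal with AZA (2.23) and CHQ (2.38).

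Sohlh2, a basic helix-loop-helix factor of spermatogonia and young oocytes, gave 9.69 on ES, 9.44 on ELA, 12.06 on ELA+AZA and 10.07 on ELA+CHQ. It stood 6.15-fold above ELA with AZA, while the CHQ difference of 0.63 was not called. Ddx4, the germ cell RNA helicase also known as Vasa, went the other way. It was at 11.41 on ES, 10.53 on ELA, 9.32 on ELA+AZA and 11.01 on ELA+CHQ. The AZA value was 2.31-fold below ELA and was the lowest of the 4. The Ddx4 promoter window held 38 CpG, the most among the 33 members with a matched window. Nanos3, an RNA-binding protein that protects primordial germ cells, varied from 9.89 to 10.57 and was not called. Prdm1, a repressor that starts germ cell specification, had a flagged spot on the ELA array and read 9.37 on ES, 10.16 on ELA+AZA and 9.86 on ELA+CHQ.

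Of the 10 piRNA pathway genes, 4 were callable with AZA and 5 with CHQ. In this group 3 were called higher with AZA and the same 3 with CHQ, and 5 were too dim for a call in either comparison. Fkbp6, a co-chaperone in piRNA production, was at 7.97 on ES, 7.04 on ELA, 10.25 on ELA+AZA and 9.22 on ELA+CHQ. These are 9.28-fold and 4.53-fold above ELA. The CHQ call was lost under 75th percentile scaling (3.18) and in the authors' table (2.85), where Fkbp6 did not meet the intensity minimum. Rnf17, a tudor protein of germ cell granules, was at 9.11, 8.03, 10.25 and 10.54 and so was above the ES value with both inhibitors. Piwil2, the PIWI protein MILI, was at 8.80, 7.58, 8.59 and 8.61, and its ratios to ELA, 2.01-fold and 2.04-fold, only just passed the threshold. Under spike-in scaling the log2 differences were 0.75 and 0.67.

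Mael, which acts in piRNA production and transposon silencing, was at 12.74 on ES, 11.80 on ELA, 11.35 on ELA+AZA and 12.43 on ELA+CHQ. Mov10l1, the helicase that feeds piRNA precursors into processing, was at 8.46, 7.68, 7.25 and 8.16. Both were below ELA with AZA and above it with CHQ, but by less than 1 in each comparison. With AZA, Mov10l1 was also too dim for a call. The remaining genes were close to background. Asz1, a scaffold of piRNA granules, was not well above background on ES (6.13) or ELA (6.14) and was so on ELA+AZA (6.85) and ELA+CHQ (7.80). With CHQ it was at least 2.07-fold above ELA, yet too dim for a call. Tdrd1, a tudor scaffold, was well above background only on ES (6.81). The helicase Tdrd9 (7.18 and 7.73) and Piwil1 (6.67 and 6.74) were so only on ELA+AZA and ELA+CHQ, and Piwil4 only on ELA+CHQ (6.86).

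Among the measured members, the largest single difference from ELA was that of Smc1b with AZA and of Hormad1 with CHQ. Both belong to the 10 genes of the chromosome axis and synapsis, of which 8 were callable with AZA and 9 with CHQ. In this group 6 were called higher with AZA and 7 with CHQ, and 1 lower with each. The medians of these 10 genes were 1.62 and 1.78. With AZA, RNA control and specification (2.23) and the other testis genes (1.87) had higher medians. With CHQ, recombination (2.33) and the other testis genes (1.82) did. The recombination median covers 3 callable genes and is the value of the brighter Tex11 probe. Smc1b, the meiosis-specific SMC subunit of cohesin, was at 8.99 on ES, 8.09 on ELA, 12.75 on ELA+AZA and 10.03 on ELA+CHQ. It stood 25.1-fold above ELA with AZA and 3.83-fold above with CHQ. The cohesin subunit Stag3 was at 11.44, 10.36, 12.26 and 12.17, almost equal with both inhibitors. The meiotic kleisin Rec8 was at 11.98, 12.07, 13.98 and 13.38. Unlike Stag3 it did not differ between ES and ELA (0.09), and yet it was called higher with both inhibitors and lay above the ES value.

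Hormad1, an axis protein that promotes break formation and synapsis, was at 8.47 on ES, 7.05 on ELA, where it was not well above background, 11.46 on ELA+AZA and 10.54 on ELA+CHQ. It was therefore at least 21.3-fold above ELA with AZA and at least 11.2-fold above with CHQ. Its dimmer second probe, which overlaps an exon junction, moved the same way (6.98, 6.14, 8.37 and 7.51) by smaller amounts. Sycp1, the transverse filament of the synaptonemal complex, was at 8.70, 7.19, 8.54 and 8.95, so that both treated values lay near ES. In the authors' table none of its 3 calls was made, with differences of -2.08, 1.87 and 2.30. Syce1 gave 13.16 on ELA+AZA and 13.03 on ELA+CHQ, both above its ES value of 12.39. Tex12, another central element protein, had 10 spots on each array, of which 8 to 10 were usable. Its means were 6.75 ± 0.12 (SD over spots, n = 10) on ES, 6.62 ± 0.19 (n = 8) on ELA, 7.78 ± 0.12 (n = 10) on ELA+AZA and 8.82 ± 0.07 (n = 9) on ELA+CHQ. No spot was well above background on ELA. On ES 5 of the 10 spots were, and the gene was taken as not well above background there. Tex12 was at least 4.23-fold above ELA with CHQ. With AZA it was at least 2.04-fold above, and the mean of those 2 arrays was too low for a call, so its place as a gene of CHQ alone rests on the intensity minimum.

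Sycp3, a lateral element protein, was the exception within this group. It was at 12.71 on ES, 13.76 on ELA, 12.68 on ELA+AZA and 12.36 on ELA+CHQ. It was thus called higher in ELA than in ES (2.06-fold) and lower with both inhibitors (2.11-fold and 2.63-fold), and the treated values lay near the ES value. The difference between ELA and ES, 1.04, was 0.97 under 75th percentile scaling, 0.99 with the mean over probes and 0.38 under spike-in scaling, and so was not called there. Its second probe gave 11.49, 12.43, 11.27 and 10.89, the same order. Syce2, a central element protein, was at 14.88, 14.78, 14.77 and 13.88, with only the CHQ value apart from the others (-0.90 against ELA). Sycp2, the partner of Sycp3 in the lateral element, was dim (6.69, 6.72, 6.32 and 6.89) and was well above background only on ELA+CHQ.

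Among the 4 recombination genes (3 callable), Tex11 and Tex15 were called higher with both inhibitors. Tex15, required for repair of meiotic breaks, was at 9.01 on ES, 8.14 on ELA, 10.22 on ELA+AZA and 11.21 on ELA+CHQ. It stood 4.23-fold above ELA with AZA and 8.42-fold above with CHQ. Its second probe was not well above background on any array (6.35, 6.0, 6.08 and 6.22) and did not show these differences (0.08 and 0.23). The X-linked gene Tex11, which promotes crossovers, was at 8.78, 7.60, 8.98 and 9.93. Its second, dim probe varied only from 6.40 to 6.84 and differed in sign in ELA against ES (0.33) and with AZA (-0.15), and with the mean over probes neither the AZA difference (0.61) nor that between ELA and ES (-0.43) was called. Dmc1, the meiotic recombinase, stayed between 8.51 and 9.16. Of its other 2 probes, 1 differed in sign with AZA (-0.34, against 0.13), and no probe of it reached a difference of 1 from ELA. Spo11, which makes the breaks, was not well above background on ES (6.30), ELA (6.41) or ELA+CHQ (6.36), and its ELA+AZA spot was flagged.

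Of the 6 other testis genes, all callable with both inhibitors, 4 were called higher with AZA and 3 with CHQ. Tex14 was at 10.83 on ELA+AZA and 10.25 on ELA+CHQ, 10.2-fold and 6.87-fold above ELA and close to or above its ES value. Tex101, a surface protein of germ cells, was at 9.21 on ES, 7.81 on ELA, 9.77 on ELA+AZA and 10.51 on ELA+CHQ. Slc25a31, the germ cell ADP/ATP carrier, was at 7.40, 6.91 (not well above background), 8.70 and 9.60. It was at least 3.46-fold above ELA with AZA and at least 6.45-fold above with CHQ. In the authors' table, and where both arrays had to be well above background, neither was called, and the AZA call was also lost under 75th percentile scaling and an offset of 16. Tuba3a, a testis alpha tubulin, was at 12.11, 11.95, 15.09 and 12.89. It stood 8.82-fold above ELA with AZA, and the CHQ difference of 0.94 fell just short of a call. Its 2 probes share 51 bases and are not independent. The closely related Tuba3b, named after its values were seen, followed the same order (10.15, 9.85, 12.82 and 10.78), so hybridisation of 1 transcript to both probes cannot be told apart from a change in both. Taf7l, a germ cell subunit of the basal transcription machinery, has 1 probe, which stayed between 12.36 and 12.59. Whether that probe also reads other transcripts was not tested, so a steady Taf7l level is not established. Brdt, the testis bromodomain protein, was at 9.41, 9.23, 8.41 and 8.63 and was not called. Its dimmer second probe differed in sign with CHQ (0.13 against ELA, where the brighter probe gave -0.60) and in ELA against ES (0.74 and -0.18).

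The inhibitors were compared directly on their shared slide. ELA+CHQ was called higher than ELA+AZA for 3 of the 36 genes (30 callable) and lower for 5, where 5.56% and 4.83% of all callable genes were. The median difference was 0.09, with 20 values above 0 and 16 below. The genes higher with AZA were Smc1b (6.56-fold), Tuba3a (4.60-fold), Sohlh2 (3.96-fold), Dazl (2.34-fold) and Fkbp6 (2.05-fold). Those higher with CHQ were Ddx4 (3.23-fold), Mael (2.12-fold) and Tex12 (2.06-fold). Under 75th percentile scaling 6 genes were called higher with CHQ and 7 lower. The Mael call was lost under spike-in scaling (0.91). Within the 18 genes called higher with both, the difference ran from -2.71 for Smc1b to 0.99 for Tex15, which with Tex11 (0.95) and Slc25a31 (0.90) fell just short of a call. Stra8 (-0.95) and Hormad1 (-0.92) fell just short on the other side. Cohesin subunits differed among themselves here: Smc1b at -2.71, Rec8 at -0.60 and Stag3 at -0.08. The 2 drugs were used at single, different concentrations, so the values stand side by side and do not rank the drugs.

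**Figure D4:**
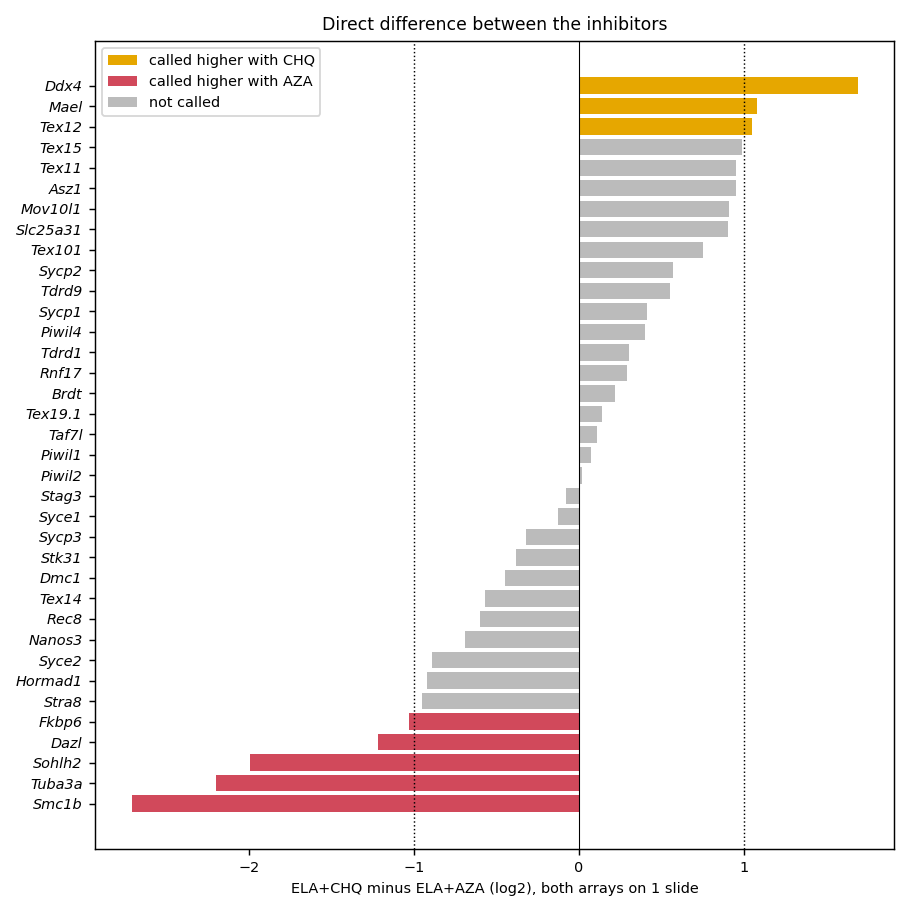
ELA+CHQ minus ELA+AZA (log2, horizontal axis) for 36 germline and meiosis genes in order of size, both arrays on 1 slide. Yellow bars were called higher with CHQ, red bars higher with AZA and grey bars were not called. Ddx4 (1.69) and Smc1b (-2.71) mark the ends.

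The ES array lies on the other slide. Against it, 11 of the 36 genes (29 callable) were called higher and 4 lower in ELA+AZA, where 11.3% and 8.29% of all callable genes were. In ELA+CHQ 11 of the 36 (30 callable) were called higher and 1 lower, where 12.7% and 10.3% of all callable genes were. Values above ES were found for 23 genes with AZA and 26 with CHQ. Smc1b (3.75), Hormad1 (2.98), Tuba3a (2.98) and Dazl (2.77) lay farthest above ES with AZA. Slc25a31 (2.20), Tex15 (2.19) and Hormad1 (2.07) did so with CHQ, and Tex12, not well above background on ES, was at least 4.2-fold above. Ddx4, Mael, Mov10l1 and Brdt were the genes called lower than ES with AZA, with differences of -2.09, -1.39, -1.21 and -1.0. The second Brdt probe gave -0.10 here, so that call rests on 1 of 2 probes.

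Other genes of the same pathways were examined as lists. Over all callable genes, 14.3% were called higher and 11.4% lower with AZA, and 14.8% and 11.9% with CHQ. Of 12 other piRNA genes (10 callable with either inhibitor), AZA gave 4 calls in each direction and CHQ gave 3. Gtsf1, a piRNA zinc finger protein, was at 8.48 on ELA, 13.12 on ELA+AZA and 12.90 on ELA+CHQ. Gpat2, a mitochondrial acyltransferase needed for piRNAs, was at 11.01, 14.93 and 15.15. Mybl1, a transcription factor of piRNA precursor genes, was called higher with both (1.57 and 2.12), and Tdrd12 differed in sign (1.08 with AZA and -1.77 with CHQ). Of 17 measured other meiotic genes, 11 were callable with AZA and 10 with CHQ. In this list 3 were called higher with each inhibitor, and 1 lower with AZA and 2 with CHQ. Mei1 was at 9.95 on ELA, 7.71 on ELA+AZA and 8.31 on ELA+CHQ, and Hormad2 was at 6.80, where it was not well above background, 9.44 and 8.36. The median differences of these 17 genes, 0.47 and 0.22, were 0.96 and 0.31 under 75th percentile scaling and 1.04 and 0.45 in the authors' table. They changed sign under spike-in scaling (-0.09 and -0.33). The medians of the members stayed above 0 under that scaling (1.09 and 1.05).

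Of 14 regulators of germ cell specification and the oocyte, 8 were callable in each comparison. In this list 3 were called higher with AZA and 4 with CHQ, and none lower in either comparison. Tfap2c, a transcription factor of primordial germ cells, was at 12.65 on ES, 9.79 on ELA, 11.91 on ELA+AZA and 13.24 on ELA+CHQ. Prdm14, a regulator of primordial germ cells and of naive pluripotency, was at 10.57 on ES, 6.69 on ELA, where it was not well above background, 10.74 on ELA+AZA and 8.36 on ELA+CHQ. Nanos1 was called higher with CHQ (1.80) and was at 0.81 with AZA. Zp3, an egg coat gene, was called higher with AZA (1.76) and was at -0.75 with CHQ. Of 10 X-linked spermatogonial genes (3 callable in each comparison), 3 were called higher with each inhibitor. The medians were 1.33 and 1.11, but 9 of the 10 genes were not well above background on ELA, and the medians were 3.58 and 2.24 under 75th percentile scaling and 0.91 and 0.46 under spike-in scaling. Nxf2, an RNA export factor, was at 7.14 on ELA, 8.44 on ELA+AZA and 8.68 on ELA+CHQ. The other genes of this list were not well above background on ELA. Among them Xlr4a was called with both (6.21 on ELA, 11.03 on ELA+AZA and 9.80 on ELA+CHQ), Xlr5a with AZA (6.65, 8.78 and 6.74) and Tktl1 with CHQ (6.42, 7.77 and 8.87). The Xlr genes have close copies, which the probes may not separate. Of 14 spermatid genes, 4 were callable with AZA and 3 with CHQ. In this list 2 were called higher with AZA and 1 with CHQ, with medians of 0.19 and -0.01 (-0.34 and -0.68 under spike-in scaling). Tekt1, a tektin of cilia and flagella, was at 8.64 on ELA, 11.36 on ELA+AZA and 8.56 on ELA+CHQ. The 5 reference transcripts had no call and medians of -0.16 and -0.17, which were -0.80 and -1.05 under 75th percentile scaling and -0.85 and -1.16 under spike-in scaling.

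Among 14 repressors of germline genes, all callable, AZA gave 1 call of higher and 3 of lower, and CHQ 1 and 2. Of all callable genes, 14.3% were higher and 11.4% lower with AZA, and 14.8% and 11.9% with CHQ. Counts this small do not set the list apart from all genes. Dnmt3b, a de novo DNA methyltransferase, was at 17.48 on ES, 18.54 on ELA, 16.81 on ELA+AZA and 17.47 on ELA+CHQ. Dnmt3a was at 10.35, 11.86, 10.85 and 10.65. Both were highest on the ELA array, as was E2f6 (13.15, 13.53, 12.27 and 12.59), whereas Mga was lowest there (10.47, 9.84, 11.16 and 11.10). E2f6, a repressor of E2F sites, was called lower with AZA (-1.26), and Mga, a component of the same complex, was called higher with both (1.33 and 1.26).

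Several markers of cell state differed between the same arrays, in both directions. Zfp42, a marker of naive pluripotency, was at 15.82 on ES, 11.99 on ELA, 15.74 on ELA+AZA and 15.06 on ELA+CHQ, and 4 of the 6 pluripotency markers were called lower in ELA, 4 higher with AZA and 3 higher with CHQ. Nanog was called higher with AZA (2.88) and was at 0.01 with CHQ, and Pou5f1 was called with neither (-0.41 and -0.90). Of the 3 primed markers, Fgf5 ran the other way, called higher in ELA than in ES (2.87) and lower with AZA (-2.54) and CHQ (-1.15). The other primed markers were not called: Eomes was at 0.56, -0.70 and -0.89 in these comparisons, and Otx2 at 0.58, 0.33 and -0.31. The neural marker Nes (-1.67 and -1.25) was also called lower with both inhibitors. The trophoblast list split, with Krt8 called lower (-1.81 and -1.21), Gata3 at 0.60 and 0.91, Elf5 at 0.44 and 0.64 and Cdx2 at -0.24 and -0.21. So did the fibroblast list, with Col1a2 called lower with both (-1.87 and -2.0), Col1a1 called higher with AZA (1.3, and 0.79 with CHQ) and Col3a1 at 0.04 and -0.05. Of the 4 primitive endoderm markers, Gata6 and Sox17 were not well above background on ES or ELA and were called higher with CHQ, at 9.89 and 9.51. On ELA+AZA they were well above background at 8.06 and 7.76, but too dim for a call. Gata4 (0.24 with AZA and 0.27 with CHQ) and Sox7 (0.76 and 0.40) were not called. The spermatid markers Prm2, Tnp1 and Tnp2 stayed at or below 7.95 on all 4 arrays. Prm1 was at 7.83 on ELA and 9.88 and 9.44 on the treated arrays. The part of these markers, and of cell state, in the differences of the members was not tested.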

How the data were processed

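Per the labels, total RNA from 3 experiments was pooled for each of the 4 arrays and labelled with Cy3. Per the file headers, image analysis used Feature Extraction 10.7.3.1 from Agilent (the submitters' processing notes name 9.1), and the authors' deposited spot intensity values are not normalised between arrays. The deposited table of log2 values was background-corrected and quantile-normalised by the authors with limma. It served as an alternative (r of 0.9908 to 0.9915 with the values used here). Here the mean intensity and local background were corrected by normexp (offset 50) and quantile-normalised across the 4 arrays with limma 3.58.1 in R 4.3.3. Outlier-flagged spots were left out, spots of a probe were averaged, and a gene was represented by its brightest probe. Of 55681 probes, 559 had no usable spot on at least 1 array. Where a probe was not well above background, a fold is a lower bound against the lowest signal well above background on that array, or the probe's own value where higher. Alternatives changed the scaling, the background correction, the filter on dim probes, the choice of probe or the source of the values. Having 1 array a group limits the precision.

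The members and lists were chosen with earlier results of these data known. Every member was named, with another probe of a gene given where it differed in sign or by 2 or more and was well above background on at least 1 array (Tex15's dim second probe is given too). Up to 4 genes of each list were named, by size of difference from ELA among genes well above background on both arrays. Hormad2, Prdm14, Xlr4a, Xlr5a and Tktl1 fall outside this rule and, like Tuba3b, were chosen after their values were seen. An array with a SmarcA4 knock-down was not analysed here.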

Additional observations from a re-analysis of the deposited data

Results flagged for a closer look

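Ddx4 and Mael had opposite signs with the inhibitors, being below ELA with AZA and above it with CHQ. ELA+CHQ exceeded ELA+AZA by 1.69 for Ddx4 and by 1.08 for Mael, both measured within 1 slide. With 1 array in each group the difference was not tested. For Mael it was 0.91 under spike-in scaling.
Mov10l1 had the same pattern (-0.43 with AZA and 0.48 with CHQ, 0.91 apart) and lay just under the minimum size of 0.49 set for the larger of both differences. For Mov10l1 CHQ exceeded AZA by 1.47 under 75th percentile scaling.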

How the results depend on the processing

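Alternatives were run for ELA against ES, each inhibitor against ELA and CHQ against AZA, and not for the treated arrays against ES. In those 4 comparisons no called difference of a member changed sign. No paired analysis was possible because each group has 1 array, and for the same reason no array could be left out. Scaling to the 75th percentile moved the median of all genes to -0.41 (AZA against ELA) and -0.47 (CHQ against ELA), and scaling to 7 spike-in probes moved it to -0.50 and -0.64. The number called higher in ELA against ES, 1 as reported, was 0 under 75th percentile scaling, spike-in scaling and the mean over probes, and 2 with outlier-flagged spots kept, an alternative chosen after seeing the data. The 2 there include Prdm1 (1.17). The number called lower was 19 under spike-in scaling, where the median of all genes in ELA against ES was -0.43. The number called lower with CHQ was 2 under 75th percentile and spike-in scaling. For CHQ against AZA, 6 were called higher under 75th percentile scaling and 5 in the authors' table, and 8 lower under spike-in scaling. Higher with AZA alone numbered 4 under 75th percentile scaling. Higher with CHQ alone numbered 0 in the authors' table and where both arrays had to be well above background, and 2 with the mean over probes. Genes higher with both inhibitors numbered 14 under 75th percentile scaling and in the authors' table. The causes were not tested. Dim members such as Piwil1 and Sycp2 were limited by signal over background.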
